A study of Bos taurus with 6 samples.

Results

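Chemokines, interleukins and their receptors were followed in cultured bovine deep zone articular chondrocytes with and without forced expression of CREB5, a transcription factor that binds cyclic AMP response elements. The members were all 133 of the 27607 genes in the deposited table whose symbol is CXCL, CCL, CXCR or CCR with a number, begins with IL and a number, or is GRO1, LIF, LIFR, OSMR, IL6ST or CSF1. The cells of all 6 libraries came from the deep layer of the cartilage of 3 independently collected knees. They carried a doxycycline-inducible bovine CREB5 lentivirus and had been selected with G418. They were then held for 3 days in low attachment plates with 10% serum and the growth factors TGFa (100 ng/ml) and TGFb2 (20 ng/ml). The 3 Dox- libraries had no doxycycline and the 3 Dox+ libraries had it, at 1 µg/ml per the treatment protocol in the labels. Both groups were numbered 1 to 3, and whether a number marks 1 knee is not stated, so p-values measure the spread between these libraries.

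Chemokines are small secreted proteins that guide migrating cells through G protein-coupled receptors. Those of the CXC group that carry a Glu-Leu-Arg motif, such as GRO1, CXCL5 and CXCL8, draw neutrophils through CXCR1 and CXCR2. Interleukins act through receptor chains that are often shared: gp130, encoded by IL6ST, serves IL-6, LIF and oncostatin M, and signals through JAK kinases and STAT factors. In cartilage, IL-1 and IL-6 are known for driving matrix breakdown, and chondrocytes themselves can make several of these ligands.

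The libraries held 20063379 to 122366790 reads, recovered from the deposited normalized counts, and CREB5 stood at 308 to 509.5 normalized counts in the Dox- libraries and at 12413 to 21964 in the Dox+ libraries. Of 10 chondrocyte markers, all were detected and 9 were tested, of which 1 rose and 2 fell, where 2.52% and 0.357% of all genes tested did. With the library number fitted as a block, 1 was higher and 4 were lower, where 4.86% and 1.65% of all genes were. Their summed level was 155719 to 305509 in Dox- and 104172 to 121716 in Dox+ libraries, so the marker sum itself was lower with doxycycline. Of 14 leukocyte and macrophage markers, 7 were tested, 0 passed, and the summed level was 237 to 557 in Dox- and 474 to 802 in Dox+ libraries. ITGAM and MS4A1 had no read, and PTPRC, the common leukocyte antigen, had 3 reads over the Dox- libraries and 1 over the Dox+ libraries. LCP1, an actin-bundling protein of leukocytes, was 1.02 ± 1.28 in Dox- and 24.4 ± 21.7 in Dox+ libraries (SD, n = 3, limma adjusted p = 0.13, and 0.027 with the number as a block). Genes were tested at a mean of at least 10, which LCP1 reached through the Dox+ libraries alone. Endothelial markers summed to 136 to 297 in Dox- and 158 to 226 in Dox+ libraries, with CLDN5 and ESAM at 0, and 0 of the 3 tested passed. The 5 synovial fibroblast markers summed to 114216 to 144610 and to 78957 to 92006, and 0 passed without the block and 2 were lower with it. The part of such cells in the results was not tested. In bulk RNA, fewer cells of a type and less RNA per cell cannot be told apart.

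Most of the family was silent or nearly so. No library held a read of 39 members, and 46 more had reads but a mean under 10 normalized counts, below which genes were not tested. The remaining 48 were tested. Detection by role was uneven: 20 of 40 interleukin receptors and all 3 gp130 family receptors were tested, against 2 of 19 CC chemokines and 1 of 16 chemokine receptors. Among the ligands, 8 of 13 CXC chemokines and 10 of 38 interleukins were tested, as were LIF and CSF1. Normalized counts are not scaled to gene length, so levels are compared within a gene only.

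**Figure D1:**
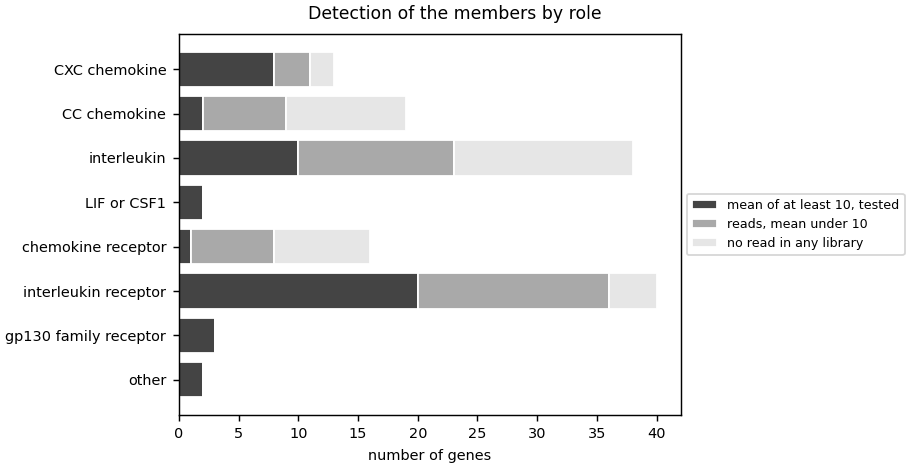
Number of members by role (vertical axis), split into those tested, those with reads but a mean under 10 normalized counts, and those without a read in any library. Of 133 members, 48 were tested, 46 had few reads and 39 had none, and the 16 chemokine receptors held 1 tested gene.

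Setting Dox+ against Dox- cells asks which of these genes change when CREB5 is forced on with doxycycline. Every library carried the virus, so an effect of doxycycline itself cannot be told apart from an effect of CREB5. Levels below are normalized counts, either per library in the order of numbers 1, 2 and 3 or as mean ± SD over 3 libraries, first without and then with doxycycline. A fold change compares the group means on the log2(normalized count + 1) scale, which shrinks the change of genes with few reads. In limma, 2.88% of all 13180 genes tested passed at an adjusted p under 0.05. Of the 48 tested members, 4 rose and 0 fell, where 2.52% of all genes rose and 0.357% fell. The 4 were the CXC chemokines GRO1, CXCL5 and CXCL13, and the interleukin IL33. At an unadjusted p under 0.05, 10 members passed, where 10.6% of all genes did. DESeq2 called 6 higher and 1 lower and edgeR 3 higher and 0 lower, where DESeq2 called 4.12% and 1.21% of genes and edgeR 2.31% and 0.296%.

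The labels do not say that a number pairs libraries. Same-numbered libraries deviated together in these same data, but number 3 hardly more than Dox- 3 with Dox+ 2 (correlations of 0.21 and 0.18). On that basis the number was also fitted as a block. With it, 6 members were higher and 1 was lower, where 4.86% and 1.65% of all genes were, 6.51% in all. The count was the same in edgeR with the block, which called 4.48% of genes higher and 1.44% lower, and in DESeq2 with the block, which called 5.64% and 2.32%. The added calls in limma were the receptors IL6R and IL2RB, both higher, and the interleukin IL6, lower. DESeq2 also called each of them without the block (adjusted p = 0.027, 0.0051 and 0.00030), and edgeR without the block called none of them (0.17, 0.087 and 0.076). For 5 tested members, GRO1, CXCL8, CXCL13, IL33 and IL21R, the Dox- mean alone was under 10, and for IL15 the Dox+ mean was, so these 6 entered the test through 1 group and the counts of calls are a description only. The median log2 fold change of the tested members was 0.13, against -0.0036 over all genes tested, and 26 of 48 lay above 0. Between groups that did not overlap, 10 members were higher and 2 lower, where 8.88% and 6.29% of all genes were.

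**Figure D2:**
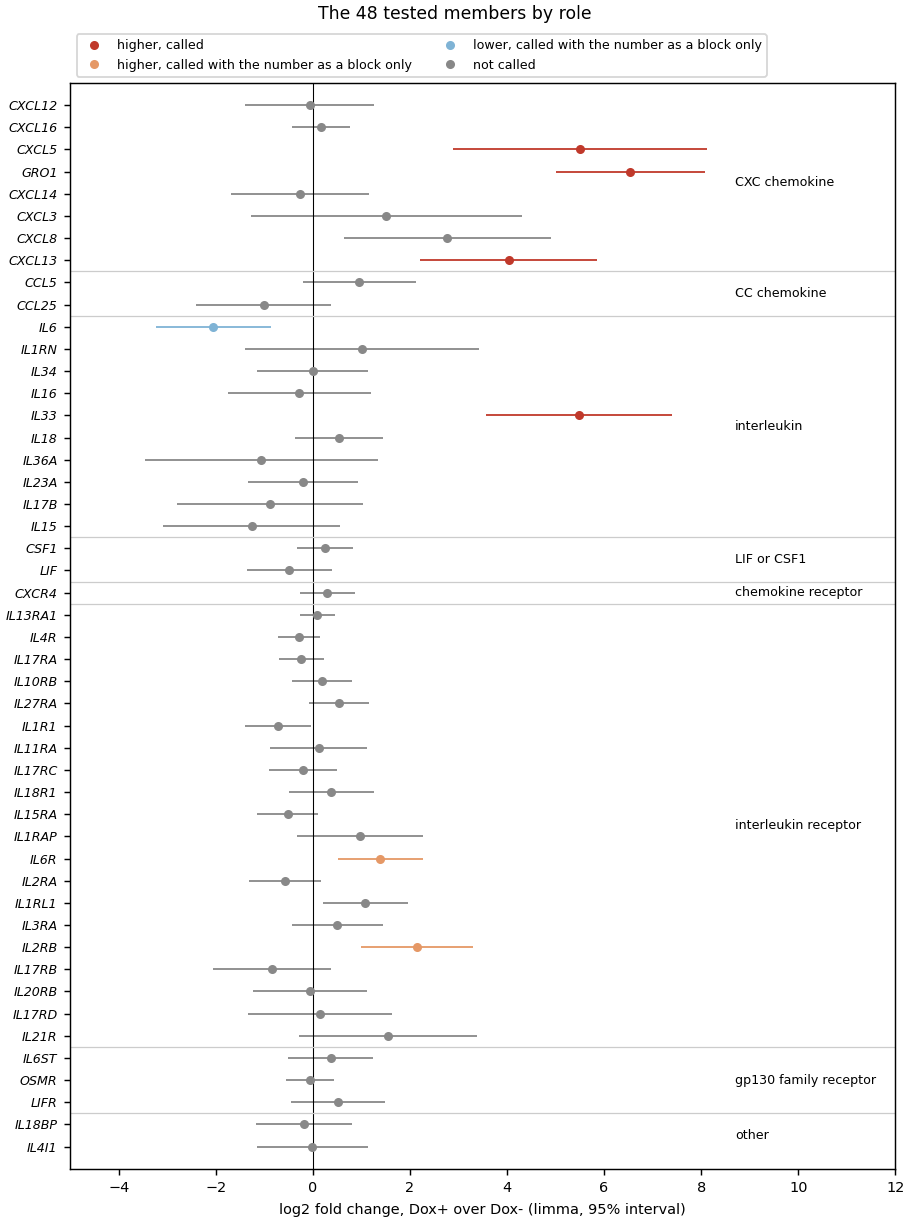
Log2 fold change of Dox+ over Dox- (horizontal axis) for the 48 tested members, grouped by role, with 95% intervals from limma without the block. The 4 red members, GRO1, CXCL5, IL33 and CXCL13, lie between 4.03 and 6.54, the 3 called in limma with the block alone are IL2RB, IL6R and IL6, and the intervals of most receptors cover 0.

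GRO1 (ENSBTAG00000037558), the bovine counterpart of the neutrophil chemokine CXCL1, changed the most of the tested members. Its normalized counts were 1.23, 0 and 0 without and 129, 73.3 and 186 with doxycycline. Every Dox+ library stood far above every Dox- library, in which 2 reads were counted in all. The ratio of pooled reads, scaled to depth, was 193 (95% exact interval 53.0 to 1601, counting error only), and the limma log2 fold change was 6.54 (SE 0.67, adjusted p = 0.0010). The call held with each of the 6 libraries left out, with adjusted p of at most 0.017. GRO1 entered the test through the Dox+ libraries alone, also in those fits, so its call is a description only.

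CXCL5 (ENSBTAG00000009812), another neutrophil chemokine of the same motif group, was 28.2, 16.3 and 0 without and 690.4, 173 and 386 with doxycycline. The groups did not overlap, and within the groups the libraries numbered 1 were the highest. The rise was 45.2-fold (a log2 difference of 5.50, SE 1.15; limma adjusted p = 0.041, or 0.0023 in the blocked fit). Its size rested in part on single Dox- libraries: the log2 difference was 4.003 without Dox- 3, the library at 0, and 6.44 without Dox- 1. This call was lost in limma without Dox+ 1 (adjusted p = 0.15), Dox+ 2 (0.054), Dox+ 3 (0.20) or Dox- 2 (0.067), at a pseudocount of 0.5 (0.067), without a filter (0.0503) and in edgeR (0.057).

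CXCL8, the interleukin-8 gene, had 2.45, 5.92 and 0 without and 13.5, 11.9 and 39.5 with doxycycline. Its groups did not overlap either, but it did not pass in limma (6.83-fold, 95% interval of the log2 fold change 0.65 to 4.90, adjusted p = 0.25, and 0.13 with the block). CXCL3 was 17.7 ± 16.9 and 26.3 ± 11.3, with overlapping groups. CXCL2 had 8 reads over the Dox- libraries, all in Dox- 1, and 2 over the Dox+ libraries, all in Dox+ 3. Scaled to depth, these were 1.64 ± 2.83 and 1.55 ± 2.69 normalized counts. In RefSeq's gene order, on another build than the files use, CXCL8, CXCL5, CXCL2, CXCL3 and GRO1 follow each other with at most 2 other protein-coding genes between neighbours. GRO1, CXCL2 and CXCL3 are close copies of each other, so the division of reads among them is uncertain. Their receptors were near the floor: CXCR1 had 20 reads over the Dox- and 15 over the Dox+ libraries, and CXCR2 had 5 and 2.

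**Figure D3:**
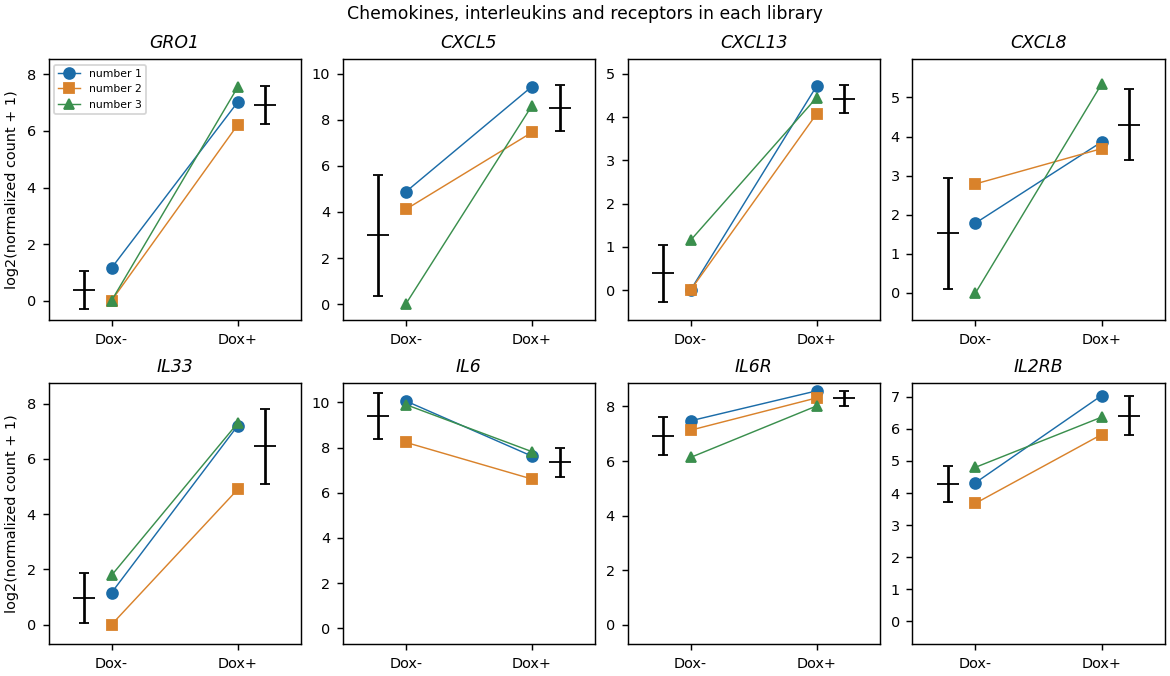
Log2(normalized count + 1) in each Dox- and Dox+ library (vertical axis) for the 7 members called with or without the block and for CXCL8, with lines joining libraries of the same number and black marks for the mean and SD of a group. Dox+ libraries lie above all Dox- libraries for every gene but IL6, where they lie below.

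CXCL13 (ENSBTAG00000008479), which attracts B cells through CXCR5, was at 0, 0 and 1.22 without and 25.4, 15.9 and 20.9 with doxycycline. Only Dox- 3 held reads among the Dox- libraries, 2 in all. CXCL13 entered the test through the Dox+ libraries alone, so its call is a description only. The ratio of pooled reads, scaled to depth, was 36.0 (95% exact interval 9.54 to 304) and the limma adjusted p was 0.032, and 0.010 with the block. The call was lost whichever library was left out: leaving out Dox- 1, 2 or 3 gave an adjusted p of 0.064, 0.089 or 0.059, and leaving out Dox+ 1, 2 or 3 gave 0.13, 0.073 or 0.14. CXCR5 had 4 reads over the Dox- and 1 over the Dox+ libraries.

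The other tested chemokines did not pass. CXCL12, which acts through CXCR4 and anchors stem and immune cells, was 849, 2807 and 1098 without and 746, 3198 and 953 with doxycycline. Both libraries numbered 2 were high, and the groups covered the same range (log2 fold change -0.07, 95% interval -1.40 to 1.27, limma adjusted p = 0.99). With the block the interval narrowed to -0.48 to 0.35. CXCR4, the only tested chemokine receptor, was 732 ± 158 and 901 ± 211 (limma adjusted p = 0.83). CXCL16, a chemokine that also exists as a membrane-bound form, was 789 ± 229 and 863 ± 98.4, and CXCL14 was 46.1 ± 20.5 and 41.2 ± 25.7.

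Of the CC chemokines, CCL5, which attracts T cells and monocytes, was 116, 57.7 and 43.4 without and 227, 78.1 and 123 with doxycycline. It was higher in each same-numbered pair, but the groups overlapped and it did not pass (1.94-fold, limma adjusted p = 0.62, and 0.16 with the block). CCL25, a chemokine of the thymus and gut, was 26.1 ± 2.28 and 14.4 ± 10.2 (adjusted p = 0.70). CCL2, the main monocyte chemokine, was barely detected, with 3 reads over the Dox- and 12 over the Dox+ libraries, all 12 in Dox+ 2. Among the other 16 CC chemokines, 10 had no read.

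IL33 (ENSBTAG00000018347), an alarmin of the IL-1 family stored in the nucleus, rose from near the floor. It was 1.23, 0 and 2.45 without and 146, 28.7 and 156 with doxycycline. Dox+ 2 was the lowest of its group, yet above every Dox- library. IL33 entered the test through the Dox+ libraries alone, so its call is a description only. The rise was 44.6-fold (a log2 difference of 5.48, SE 0.85; limma adjusted p = 0.0095, or 0.00026 in the blocked fit). Leaving out Dox+ 1 gave an adjusted p of 0.052, and leaving out Dox+ 3 gave 0.077. Without Dox+ 2 the log2 difference was 6.26. At a pseudocount of 5 it was 3.93, and those of GRO1, CXCL5 and CXCL13 were 4.55, 4.58 and 2.24, so the fitted size of all 4 depends on that setting.

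IL1RL1, which encodes the IL-33 receptor ST2, was 48.4, 39.9 and 42.2 without and 77.8, 78.1 and 133 with doxycycline. The groups did not overlap, but the difference did not pass (2.12-fold, 95% interval of the log2 fold change 0.21 to 1.96, limma adjusted p = 0.29, and 0.14 with the block). IL1RAP, the co-receptor that IL-1 and IL-33 share, was 162 ± 91.5 and 322 ± 209 (adjusted p = 0.67, and 0.19 with the block). IL1R1, the signalling receptor of IL-1, was 1136, 944 and 1674 without and 525, 793 and 960.4 with doxycycline. It was lower in each same-numbered pair, although Dox+ 3 lay above Dox- 2, and it did not pass (1.65-fold, adjusted p = 0.41, and 0.098 with the block).

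IL1R1 and IL1RL1 are near neighbours in RefSeq's order, in a run with IL1R2, IL1RL2, IL18R1 and IL18RAP, and had log2 fold changes of opposite sign, -0.72 and 1.08. IL18R1, a chain of the IL-18 receptor, was 1.30-fold higher without passing (adjusted p = 0.86). The ligands of IL1R1 were almost absent: IL1A had 0 reads over the Dox- and 1 over the Dox+ libraries, and IL1B had 4 and 0. IL1RN, the natural antagonist of IL-1, lies at the other end of the run that begins with IL1A and IL1B, and was well detected. It was 829.6, 35.5 and 90.5 without and 785, 151 and 191 with doxycycline, so the libraries numbered 1 were high in both groups (limma adjusted p = 0.86, and 0.19 with the block). IL36A, an IL-1 family cytokine of epithelia in the same run, was also highest in the libraries numbered 1, with 133, 11.8 and 16.5 without and 50.8, 7.06 and 6.98 with doxycycline.

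**Figure D4:**
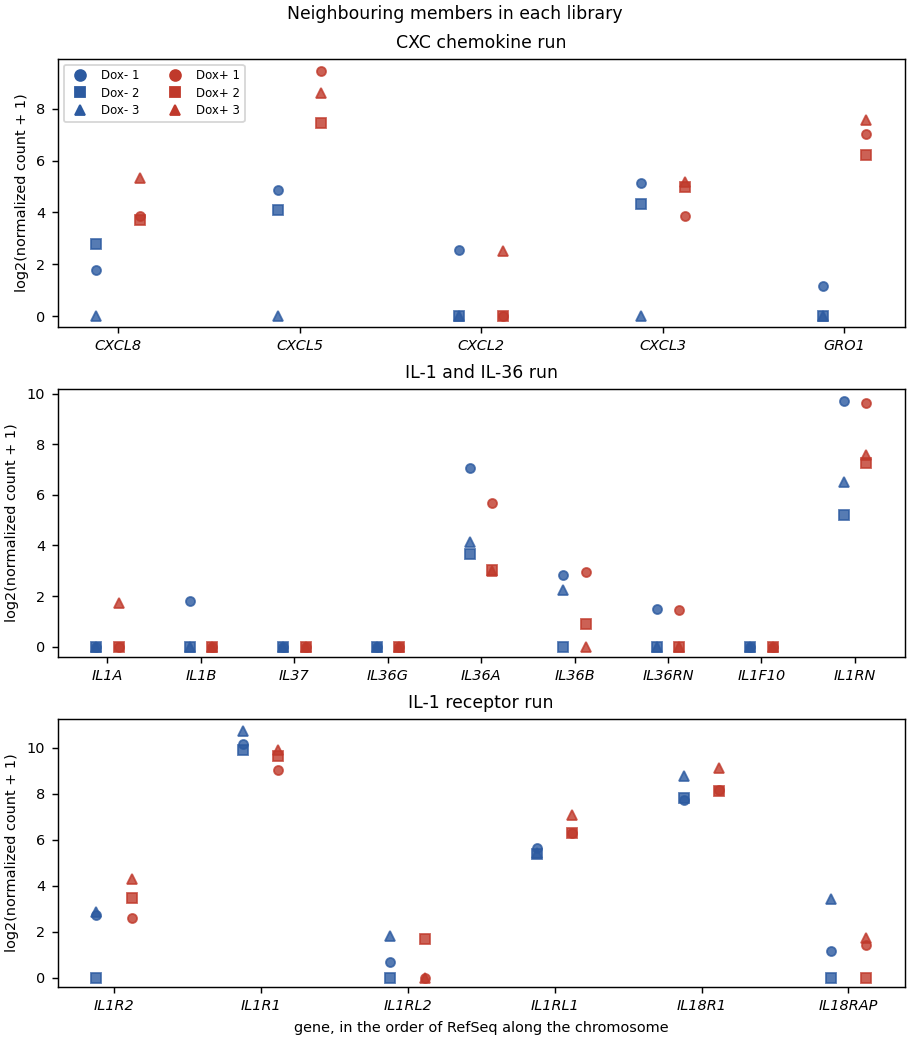
Log2(normalized count + 1) (vertical axis) in each Dox- (blue) and Dox+ (red) library for 3 runs of members that neighbour each other, in RefSeq's order. In the CXC run GRO1 and CXCL5 separate by treatment and CXCL2 and CXCL3 overlap, while in the IL-1 and IL-36 run the libraries numbered 1 are the highest for IL36A and IL1RN in both groups.

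IL6 (ENSBTAG00000014921), the ligand that gives its name to the gp130 cytokines, was lower in Dox+ libraries. It was 1074, 300.2 and 960.1 without and 196, 96.7 and 226 with doxycycline. The groups did not overlap, and both libraries numbered 2 were the lowest of their group. Dox+ over Dox- was 0.183, 0.322 and 0.235 in pairs 1, 2 and 3. The 4.15-fold difference (log2 fold change -2.05, SE 0.52) did not pass in limma without the block (adjusted p = 0.097) and passed with it (adjusted p = 0.00071, 95% interval -2.60 to -1.50). Without Dox- 2 it also passed without the block (log2 fold change -2.64, adjusted p = 0.017). Leaving out any other single library, it did not pass without the block (limma adjusted p = 0.17 to 0.31).

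IL6R (ENSBTAG00000018474), the receptor chain specific to IL-6, was higher in Dox+ libraries. It was 177, 139 and 69.1 without and 379, 317 and 258 with doxycycline, without overlap between the groups. The ratio was 2.15, 2.28 and 3.74 in pairs 1, 2 and 3. The 2.62-fold difference (log2 fold change 1.39, SE 0.39) had a limma adjusted p of 0.14, and 0.014 with the block.

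The chains that IL-6 and its relatives share did not pass. IL6ST, which encodes gp130, was 3515, 2584 and 1249 without and 4004, 2037 and 2965 with doxycycline, with groups that overlapped (log2 fold change 0.36, 95% interval -0.52 to 1.24, limma adjusted p = 0.87). OSMR, the oncostatin M receptor, was 2206 ± 448 and 2114 ± 338, with an interval of -0.55 to 0.44, so a change of more than 1.5 times was outside it. LIFR, the LIF receptor, was 193 ± 90.5 and 274 ± 105 (adjusted p = 0.83), and IL11RA, which binds IL-11, was 800.1 ± 353 and 864 ± 447 (adjusted p = 0.97). IL11 itself is not analysed here. LIF, a ligand that keeps stem cells undifferentiated, was 1236, 583 and 1619 without and 802, 539 and 981 with doxycycline. It was lower in each pair, within overlapping groups (1.40-fold, adjusted p = 0.81, and 0.27 with the block). CSF1, the growth factor of macrophages, was 979 ± 189 and 1179 ± 298 (adjusted p = 0.86), and IL34, a second ligand of the CSF1 receptor, was 175 ± 63.3 and 189 ± 112 (adjusted p = 1.00).

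IL2RB (ENSBTAG00000016345), the chain that IL-2 and IL-15 share, was 19.0, 11.8 and 26.9 without and 130.3, 55.6 and 81.4 with doxycycline. Each Dox+ library lay above every Dox- library. The 4.40-fold difference (log2 fold change 2.14, SE 0.51) had a limma adjusted p of 0.074, and 0.011 with the block. Leaving out pair 1 in the blocked fit gave an adjusted p of 0.081. None of its partner chains passed. IL2RA, the high-affinity chain of IL-2, was 186, 173 and 165 without and 144, 81.6 and 135 with doxycycline, lower without overlap but not past the test (adjusted p = 0.66), and IL15RA was 356 ± 83.1 and 245 ± 40.0 (adjusted p = 0.63). IL2RG, the common gamma chain needed for signalling, had a mean of 6.37, below the filter, and IL15 was 19.5 ± 6.72 and 9.83 ± 9.38. No read of IL2 was counted.

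The receptors of IL-4, IL-13 and IL-17 were well detected and did not pass. IL13RA1, a chain of the IL-4 and IL-13 receptor, was 11513 ± 397 in Dox- and 12318 ± 972 in Dox+ libraries, with a 95% interval of the log2 fold change from -0.27 to 0.46. Its partner IL4R was 3287 ± 558 and 2681 ± 264 (interval -0.72 to 0.15), and IL17RA, the IL-17 receptor, was 2669.8 ± 339 and 2275 ± 445 (interval -0.70 to 0.22). Their limma adjusted p was 0.75 to 0.92. Of the 41 tested members called neither with nor without the block, 33 had a log2 fold change smaller than 1 in size, and for 9 the whole 95% interval lay within 1 of 0. For the others, the interval also covers log2 changes of 1 or more.

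Below the filter, IL9, a cytokine of T and mast cells, showed the largest difference in reads. It had 0 reads over the Dox- libraries and 43 over the Dox+ libraries, with 28.8, 7.50 and 20.9 normalized counts in Dox+ 1, 2 and 3. With every Dox- library set to the 3 reads that a count of 0 allows, it was at least 7.05-fold higher, with no test. Its receptor chain IL9R had 4 reads over the Dox- and 16 over the Dox+ libraries. CCR7, the lymph node homing receptor, had 33 and 5 reads, IL18RAP had 18 and 2, CCR8 had 4 and 19, and IL1R2, the decoy receptor of IL-1, had 19 and 34. These are reads, not scaled to depth, and 16 of the 19 CCR8 reads came from Dox+ 2, the deepest library. Of the 18 Dox- reads of IL18RAP, 16 came from Dox- 3. At the edge of the filter stood IL7 (mean 9.63), IL9 (9.53) and CCL17 (9.35) on the outside and CXCL13 (10.6) and CXCL8 (12.2) on the inside.

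For many members more of the spread lay between library numbers than between groups. There are more numbers than groups, so the part between numbers is expected to be the larger even where neither matters. The spread of log2(normalized count + 1) over the 6 libraries was divided into parts between groups, between numbers and a rest. The part between numbers exceeded 50% in 22 of the 48 tested members (45.8%), near the 49.3% of all genes tested. It was 98.7% for CXCL12, 91.4% for the IL-17 receptor chain gene IL17RC, 90.8% for IL10RB, 89.5% for IL16, 88.3% for IL34 and 82.7% for IL1RN. The part between groups was 97.3% for GRO1, 95.7% for CXCL13, 89.4% for IL33, 83.3% for IL2RB, 74.3% for CXCL5, 72.0% for IL6R and 68.4% for IL6. These genes were called for a group difference, so high shares follow from the choice. IL1RL1, which was not called, had 80.7%. The median part between groups was 26.4% over the tested members and 15.3% over all genes tested. In same-numbered pairs, 17 of the 48 were higher in all 3 and 10 lower in all 3, where 19.5% and 19.0% of all genes were.

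**Figure D5:**
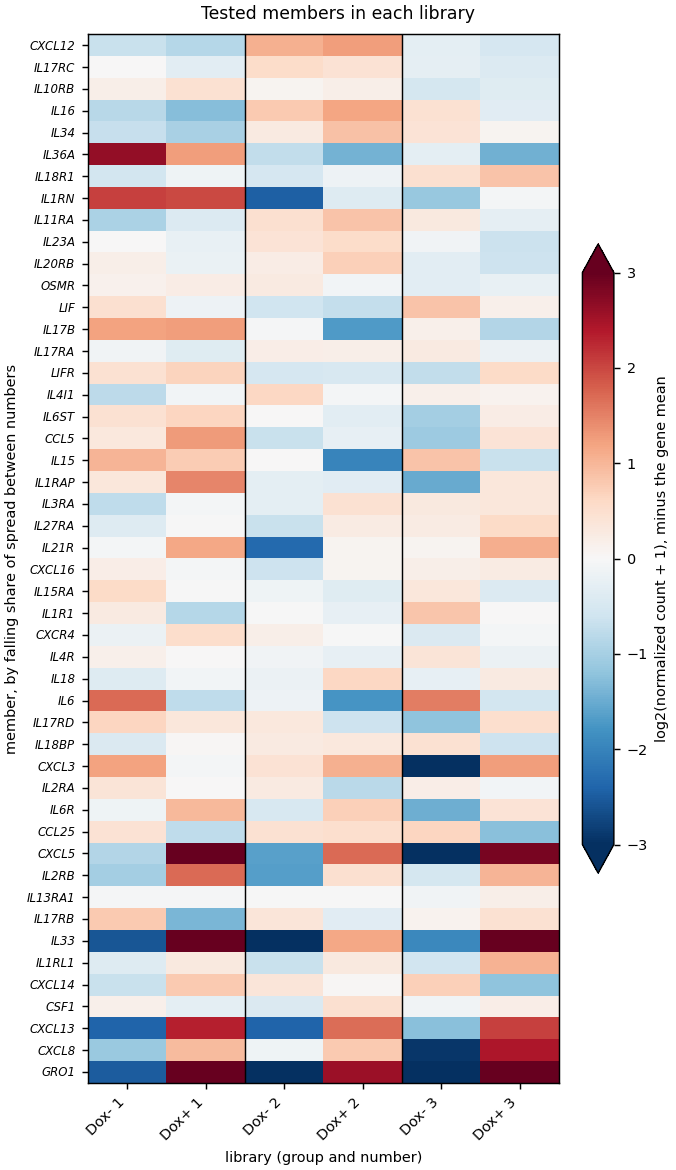
Level of each tested member (rows) in each library (columns, same-numbered libraries side by side), as log2(normalized count + 1) minus the gene's mean. Rows at the top, such as CXCL12, IL16 and IL1RN, have pairs of like colour, and rows at the bottom, such as GRO1, CXCL8 and CXCL13, turn from blue to red with doxycycline in each pair.

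Genes that work with the family were read from 4 lists. Of 25 tested genes of JAK and STAT signalling, 2 rose and 0 fell (median log2 fold change -0.12). Over all genes tested, 2.52% rose and 0.357% fell. STAT4, a factor known from IL-12 responses of lymphocytes, was 27.6, 28.1 and 15.9 without and 249, 154 and 165 with doxycycline. Its groups lay far apart, and it rose 7.70-fold (limma adjusted p = 0.0056, at most 0.044 with 1 library left out). SOCS2, a feedback inhibitor of growth hormone and cytokine signals, rose 2.70-fold, from 300.1 ± 102 to 782 ± 129.8 (adjusted p = 0.049, and 0.0039 with the block). That call was lost whichever library was left out (adjusted p = 0.066 to 0.26).

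SOCS3, the inhibitor that IL-6 induces, was 479 ± 103 in Dox- and 343 ± 126 in Dox+ libraries (limma adjusted p = 0.69), and SOCS1 was 57.7 ± 39.0 and 24.4 ± 9.42 (adjusted p = 0.63). SOCS5 was 1455 ± 618 and 2186 ± 608, and PIAS3, an inhibitor of STAT3, was 4039 ± 702 and 2966 ± 59.2 (adjusted p = 0.60 and 0.44). Of all genes tested, 6.51% passed in limma with the block and 2.88% without it. Of 20 tested genes of IL-1 and Toll signalling, 0 passed either way (median -0.02). The 4 with the smallest p were MYD88, the adaptor of IL-1 and Toll receptors, at 2236 ± 53.7 and 1689 ± 147, TICAM1 at 299 ± 24.9 and 212 ± 28.9, PELI2 at 10.4 ± 15.5 and 31.4 ± 23.3, and TLR2 at 30.3 ± 33.8 and 60.8 ± 18.6. All 4 had adjusted p of 0.41 to 0.64.

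Of 15 tested cytokines and receptors outside the naming rule, 1 rose and 0 fell (median -0.0035), where 2.52% and 0.357% of all genes did. It was XCL1, the lymphotactin gene, at 0.613, 0 and 0 without and 54.2, 18.5 and 34.9 with doxycycline. Its Dox- mean was under 10, so it entered the test through the Dox+ libraries alone and its call is a description only. With 1 read in the Dox- libraries, the ratio of pooled reads, scaled to depth, was 107 (95% exact interval 18.7 to 4263, limma adjusted p = 0.012). Leaving out Dox+ 1 gave an adjusted p of 0.063 and leaving out Dox+ 3 gave 0.074. Its receptor gene XCR1 had no read. CX3CL1, the membrane-bound chemokine fractalkine, was 32.1 ± 10.0 and 12.5 ± 6.15 (adjusted p = 0.44), and the cytokine gene MIF was 18890.1 ± 1083 and 13579 ± 3540.4 (adjusted p = 0.48). THPO was 116 ± 38.5 and 66.1 ± 15.8, and CTF1 was 96.5 ± 2.47 and 74.0 ± 11.8 (adjusted p = 0.61 and 0.83).

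Of all genes tested, 2.88% passed in limma without the block, and 4.86% were higher and 1.65% lower with it. Of 27 tested regulators of cytokine transcription and mRNA decay, 0 passed without the block, and 1 was higher and 1 lower with it (median 0.0010). The lower one was JUN, an AP-1 subunit, at 2714 ± 587 and 1557 ± 723 (limma adjusted p = 0.32, and 0.048 with the block). The higher one, named after its value was seen, was ATF3, at 814 ± 369 and 1529.6 ± 503 (adjusted p = 0.42, and 0.019 with the block). RELA, the main NF-kB subunit, was 5149 ± 915 and 3704 ± 182, and REL was 143 ± 45.5 and 249 ± 43.1, neither of which passed (adjusted p = 0.37 and 0.36). FOSL2, another AP-1 subunit, was 2678 ± 429 and 3975 ± 856 (adjusted p = 0.37).

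In the authors' deposited table, 63 members had an adjusted p, of which 7 were higher and 1 lower under 0.05, where 5.24% and 2.05% of its genes were. In that table the 8 were IL33, GRO1, IL6R, IL2RB, IL9, CXCL13 and CXCL5 on the higher side and IL6 on the lower, with adjusted p from 2.9e-13 (IL33) to 0.026 (CXCL5). The log2 fold change of CXCL5 in the authors' deposited table was 0.15 with a standard error of 0.45, and that of CXCL8 was 0.26. Whether fold changes in the authors' deposited table were shrunken toward 0 is not stated. CXCL5 passed there with a fold change smaller than its standard error, so size and p-value do not match as in an unshrunken fit. The sizes in that table are therefore not set against those computed here. For IL6 the authors' deposited table gave -1.99 and for GRO1 it gave 7.84.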

How the data were processed

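Libraries made with the KAPA mRNA HyperPrep kit were sequenced from 6 cultures, per the labels' protocols. The deposited signal is a normalized count per gene and library. How the authors scaled it is not stated beyond its name. The authors' deposited table also gives log2 fold changes and p-values. Per the submitters' processing notes, which give no role or order, the builds were ARS-UCD1.2 and bosTau9, and the tools DESeq2, Salmon, STAR 2.5.2b, MultiQC 1.2 and FastQC 0.11.3. Neither annotation nor strand setting is given in the sources used here. Overlapping and antisense genes therefore cannot be told apart.

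Within a library every value was a whole multiple of 1 step, so reads were recovered: 100% of values above 0 were whole within 0.01 read. Libraries of a group differed beyond sampling noise (chi-square per degree of freedom 57.9 to 435). Exact intervals, at 95%, and the floor of 3 reads account for counting error alone, because reads are not independent molecules.

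Groups were compared two-sided on log2(normalized count + 1) in limma 3.58.1 under R 4.3.3, by lmFit followed by eBayes with a mean-variance trend. No other term entered. The 13180 genes whose mean reached 10 were tested, p-values were adjusted over all of them by Benjamini-Hochberg, and 0.05 was the threshold. Alternatives were pseudocounts of 0.5 and 5, a minimum mean of 50 or none, TMM scaling, the number as a block, leaving out each library, and edgeR 4.0.16 and DESeq2 1.42.0 on the recovered reads. Fits were tested on simulated data without an effect of the library number. There, limma recovered 23.5% of 2-fold changes without the block and 18.5% with it. It recovered 85.7% of 4-fold changes in both fits. Recovery in data with an effect of the number was not tested. Deviations from the group means correlated by 0.65, 0.44 and 0.21 over the tested genes between libraries numbered 1, 2 and 3, so the numbers were taken to pair them. Between unlike numbers the highest was 0.18, for Dox- 3 with Dox+ 2, close to that of pair 3.

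The members, lists and tests were chosen with earlier results of these data known. Named were the members called with or without the block, the IL-6 family and a few fixed genes, the 5 tested members with the highest mean, up to 5 below the filter by difference in reads, and from each list the called genes and up to 4 others with the smallest p. Others named in the text were chosen after their values were seen. A RefSeq table on the build ARS-UCD2.0, matched for 133 members by Entrez ID or symbol, gave gene order only.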

Additional observations from a re-analysis of the deposited data

How the results depend on the processing

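Of 379 genes called in limma without a block, the count was 858 with the replicate block, 781 in edgeR and 1049 in DESeq2 with the block, and 701 in DESeq2 without it. Leaving out 1 library gave 148 to 437. Blocked fits that drop a pair, chosen after seeing the data, leave 1 residual degree of freedom per gene and gave 790, 1210 and 1454. The 4 members called higher became 6 with the replicate block, 1 to 3 without 1 library and 7, 8 and 8 in the blocked fits that drop a pair. The 0 called lower became 1 with the replicate block, 1 in edgeR and 1 in DESeq2 with it, 1 in DESeq2 without it, 0 to 1 without 1 library and 1, 2 and 3 in the blocked fits that drop a pair. In limma, beside IL6, IL6R and IL2RB, the block changed no call of a named member. Over 20 named members and 19 alternatives, 319 values kept their direction and their side of the threshold, 15 lost and 26 gained a call, and 17 changed sign, 0 of them of called members. TMM scaling moved the median of all genes by 0.0073.

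Signs changed in members whose log2 fold change in limma without the block was -0.067 (CXCL12) to 0.36 (IL6ST). For CXCL12 the log2 fold change was 0.047 in DESeq2, 0.060 in edgeR, -0.71 to 0.45 without 1 library and 0.00098 in the blocked fit that drops pair 3. For IL11RA it ran from -0.33 to 0.38 without 1 library, with -0.097 and -0.015 in the blocked fits that drop pair 1 or 2. For IL6ST it ran from -0.060 to 0.69, with -0.078 in the blocked fit that drops pair 3, and for OSMR from -0.23 to 0.067, with 0.094 when pair 2 is dropped. For CSF1 it was -0.065 when pair 2 is dropped. The cause was not tested. Depth limits members with few reads: 1 read was worth 2.33 normalized counts in Dox+ 3, the shallowest library, against 0.441 in Dox+ 2.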

Other observations

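CMKLR1, which encodes a receptor of the chemoattractant chemerin and does not fall under the naming rule, was chosen after its values were seen. In libraries 1, 2 and 3 it was 42.9, 90.2 and 129 without and 3.38, 12.8 and 46.5 with doxycycline, so it was lower in each same-numbered pair although Dox+ 3 lay above Dox- 1. Its limma adjusted p was 0.26, and 0.011 with the block. RARRES2, the chemerin gene, was 3903 ± 482 in Dox- and 3371 ± 777 in Dox+ libraries (SD, n = 3, adjusted p = 0.84).

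CCL17, a chemokine of T helper cells with a mean below the filter, followed the library number more than the treatment: it was 15.9, 4.44 and 1.83 without and 25.4, 6.18 and 2.33 with doxycycline. CXCL9, an interferon-induced chemokine, was 11.0, 0 and 0 without and 20.3, 0.883 and 2.33 with doxycycline, so both libraries numbered 1 were the highest of their group, as for IL1RN and IL36A.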
